A study of Mus musculus with 12 samples.

Results

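The miRNAs described here are the Dlk1-Dio3 miRNAs of mouse chromosome 12, picked by their names among the mouse entries of an Agilent miRNA array. The name rule gave 56 of the 696 mouse miRNAs on the array, and all 56 have their listed probe positions on chromosome 12 of the mm9 genome, over a stretch of 180.1 kb (chr12:110801930-110981994). The rule uses names and no expression value, although it was set with earlier results of these data known. The RNA came from bone marrow of male C57BL/6 mice, 6 to 8 weeks old. Red cells had been lysed with an ammonium chloride buffer and cells carrying B220/CD45R or CD3 depleted with magnetic beads, and the remaining cells, enriched for osteoclast precursors, were grown with M-CSF (30 ng/ml) and RANKL (30 ng/ml), the cytokines that keep these cells alive and turn them into bone-resorbing osteoclasts. The 3 groups are day 1, day 3, and day 5 of that culture, with 4 cultures and 4 arrays each, and every group had the same cytokines, so the days are compared with each other and not with untreated cells. These are mixed primary cultures, since no cell type was selected positively. The days 1 and 5 arrays lay on 1 slide and the day 3 arrays on another, so that day 3 and its slide cannot be told apart.

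The Dlk1-Dio3 region is imprinted, which means that a gene is read from the copy inherited from 1 parent only. The paternal copy expresses the protein-coding genes Dlk1, Rtl1, and Dio3, while the maternal copy expresses long non-coding RNAs, among them Meg3, Rian, and Mirg, and the large set of miRNAs that lie in and between them. The miRNAs of the cluster are known from embryo, placenta, and brain, and from pluripotent and hematopoietic stem cells. In the GRCm38.p6 gene table the order along the chromosome is Dlk1, Meg3, Rtl1, Rian, Mirg, and Dio3. By that table, 2 of the 56 miRNAs lie in Meg3, 12 within the span of Rtl1, 2 in Rian, 27 between Rian and Mirg, and 10 in Mirg. The remaining 3, miR-376c, miR-485, and miR-487b, had no sequence match and were not placed by that table. The mm9 probe positions of miR-376c and miR-487b lie among members placed between Rian and Mirg. The opposite strands of miR-376c and miR-485 were also placed there.

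A mature miRNA finds its target mRNAs mainly through its seed, bases 2 to 8. For 53 of the 56 members a RefSeq mature sequence (GRCm38.p6 table) contained the complement of every probe of that entry. The sequences of the 6 members that were detected on any array are shown because all measured changes concern them. They are written 5′ to 3′ with the seed in capitals.
miR-494 (miR-494-3p): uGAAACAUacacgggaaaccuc
miR-134 (miR-134-5p): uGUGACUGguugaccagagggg
miR-370 (miR-370-3p): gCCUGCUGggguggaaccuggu
miR-770-3p: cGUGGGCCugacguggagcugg
miR-341 (miR-341-3p): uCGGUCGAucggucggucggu
miR-329 (miR-329-3p): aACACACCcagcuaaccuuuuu

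The 6 seeds all differ. GC content of these 6 mature sequences ranged from 40.9% for miR-329 to 72.7%, with a median of 62.9%. In the 47 members that were never detected and have a sequence, it ranged from 23.8% to 72.7%, with a median of 47.8%. For 51 of the 53 matched members, all probes pair with the 3′ end of the mature miRNA. The shortest probe of a detected member had 10 to 19 bases (median 14), against 10 to 21 bases (median 16.5) for the others.

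Most of the cluster gave no detectable signal in these cultures. The scanner software marks a miRNA as detected on an array by its own criterion. Of the 56 members, 6 (10.7%) were detected on at least 1 array, against 328 of the other 640 mouse miRNAs (51.3%). On all 12 arrays, 1 member (1.79%) and 147 of the other miRNAs (23.0%) were detected. miR-494 was the member detected on every array. miR-134 and miR-370 were detected on the same 9 arrays, which were all 4 of day 1, 3 of day 3, and 2 of day 5. miR-770-3p and miR-329 were detected on 2 arrays each, and miR-341 on 1. Between 1 and 5 members were detected per array, with the single member on day 5 replicate 3 and the 5 on day 1 replicate 2.

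**Figure D1:**
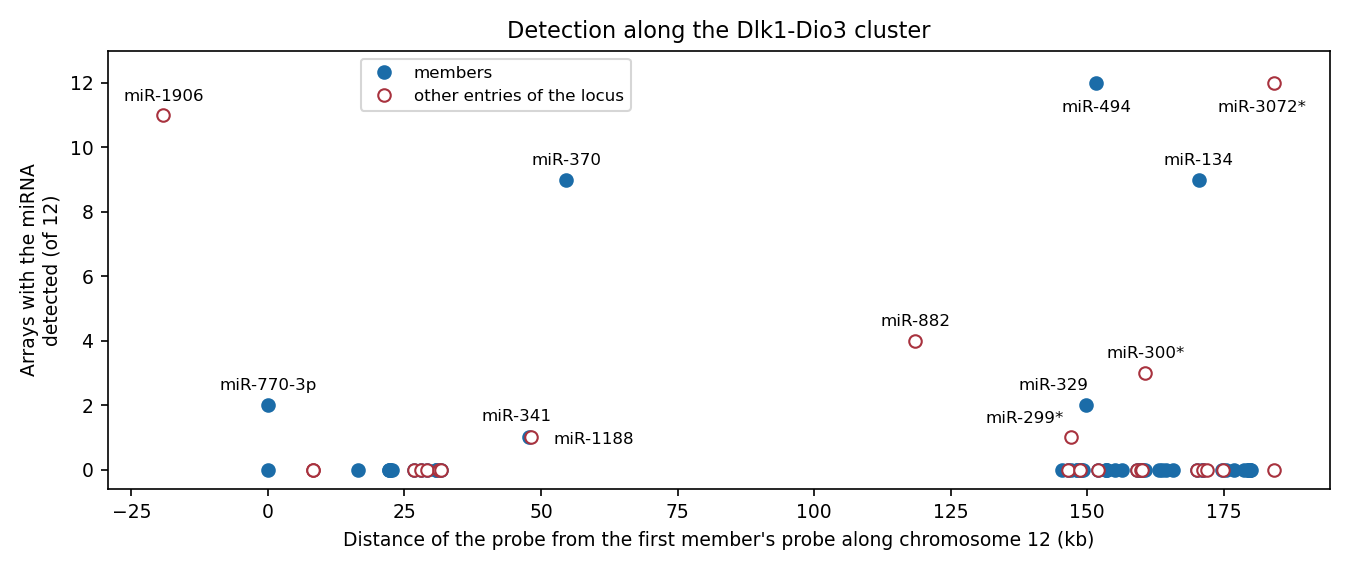
Number of arrays, of 12, on which each entry was detected (vertical axis) against the distance of its probe in kb from the first member's probe along chromosome 12 (horizontal axis). Filled points are the 56 members and open points the 24 other entries of the region. The detected entries are spread along the region, among neighbours at 0.

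Detected members were spread over the region. miR-770-3p (probe at chr12:110801964-110801975 of mm9) lies in Meg3, and its partner strand miR-770-5p was never detected. miR-341 (chr12:110849773-110849786) and miR-370 (chr12:110856523-110856536) are the 2 members in Rian. miR-329 (chr12:110951754-110951772), miR-494 (chr12:110953585-110953598), and miR-134 (chr12:110972365-110972376) lie between Rian and Mirg. None of the 12 members in Rtl1 and none of the 10 in Mirg was detected on any array. miR-668 and miR-382, the listed neighbours of miR-134, and miR-679-5p beside miR-494 were likewise not detected.

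miR-494 fell at each step of the culture. Its total signal, a background-subtracted brightness summed over its probes, was 45505, 41231, 34658, and 28757 on the 4 day 1 arrays. It was 7523, 7175, 8176, and 9408 at day 3. It was 5842, 3959, 5616, and 3739 at day 5. All day 3 arrays were below all day 1 arrays, and all day 5 arrays were below all day 3 arrays. After quantile normalization of all 334 miRNAs with detection on any array, the log2 means were 14.77 ± 0.16 at day 1, 13.42 ± 0.20 at day 3, and 12.15 ± 0.21 at day 5 (SD, n = 4 each). The difference from day 1 was -1.35 (SE 0.14, limma adjusted p = 1.1e-05) at day 3 and -2.62 (SE 0.14, limma adjusted p = 2.76e-08) at day 5. The level at day 5 was thus 16.2% of that at day 1. After day 3 the level moved by another -1.27 up to day 5 (SE 0.14, limma adjusted p = 7.42e-05), and this step alone lost its call without normalization between arrays (adjusted p = 0.0111). The exact two-sided permutation test gave p = 0.0286 for each of these pairs of days, the smallest value that 4 against 4 arrays allow. Days 1 and 5 alone, on the same slide, gave -2.62 (SE 0.14).

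miR-134, a miRNA best known from neurons, where it limits the growth of dendritic spines, fell from a clear signal at day 1 to the edge of detection. Its total signal was 1526, 1240, 848, and 913 at day 1. It was 176, 140, 132, and 121 at day 3, and the last of these arrays was not marked as detected. It was 142.04, 104, 68.8, and -59.1 at day 5, where the last 2 arrays were not marked as detected. Every day 1 array was above every later array, while the highest day 5 array (142.04) overlapped with day 3. The normalized log2 means were 9.71 ± 0.28, 7.55 ± 0.37, and 6.43 ± 0.99 (SD, n = 4). The difference from day 1 was -2.16 (SE 0.43, limma adjusted p = 0.00128) at day 3 and -3.28 (SE 0.43, limma adjusted p = 4.42e-05) at day 5, which left 10.3% of the day 1 level. Each later day gave p = 0.0286 against day 1 by the exact permutation test, for miR-134 and for miR-370. Days 3 and 5 differed by -1.13 (SE 0.43, limma adjusted p = 0.0681), which did not pass the threshold of 0.01.

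miR-370 had nearly the same course. Its total signal was 1133, 1003, 819, and 789 at day 1. It was 169, 133, 152, and 133.96 at day 3, with detection on the first 3 of these arrays. It was 129, 92.0, 73.5, and -67.7 at day 5, with detection on the first 2. All arrays of day 1 were again above all later arrays, and all day 5 arrays were also below all day 3 arrays. The normalized log2 means were 9.43 ± 0.19, 7.61 ± 0.31, and 6.28 ± 1.02 (SD, n = 4). The difference from day 1 was -1.82 (SE 0.42, limma adjusted p = 0.00342) at day 3 and -3.16 (SE 0.42, limma adjusted p = 5.63e-05) at day 5, which left 11.2%. The difference between days 3 and 5 was -1.33 (SE 0.42, limma adjusted p = 0.0324) and did not pass the threshold. On day 5 replicate 4, where the signals of miR-134 and miR-370 were below 0, quantile normalization still assigned them log2 values of 5.12 and 4.83, because it works on ranks. Without that array the change from day 1 to day 5 was -2.85 for miR-134 and -2.67 for miR-370. Days 1 and 5 alone, on 1 slide, gave -3.31 and -3.18. The calls depended on the setting. Those at day 5 against day 1 were lost without a filter on dim miRNAs (limma adjusted p = 0.0344 for miR-134 and 0.0384 for miR-370). Both miRNAs lost the day 3 call without a filter on dim miRNAs (adjusted p = 0.402 for miR-134 and 0.511 for miR-370), under both 75th-percentile scalings, and without normalization (0.0732 and 0.0982), and in these settings they also lost the call over the 3 days. miR-134 lost the day 3 call with the processed spot signal (0.0157) and miR-370 with the authors' values (0.0116). When each array was instead scaled by the 75th percentile of miRNAs seen on every array, the fit gave adjusted p values of 0.164 for miR-134 and 0.213 for miR-370 at day 3, and both passed the threshold under that scaling once day 5 replicate 4 was left out. With quantile normalization, the day 3 call of miR-370 was also lost without day 1 replicate 1 (adjusted p = 0.0114), without day 1 replicate 2 (0.0104), and without day 1 replicate 4 (0.0116).

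**Figure D2:**
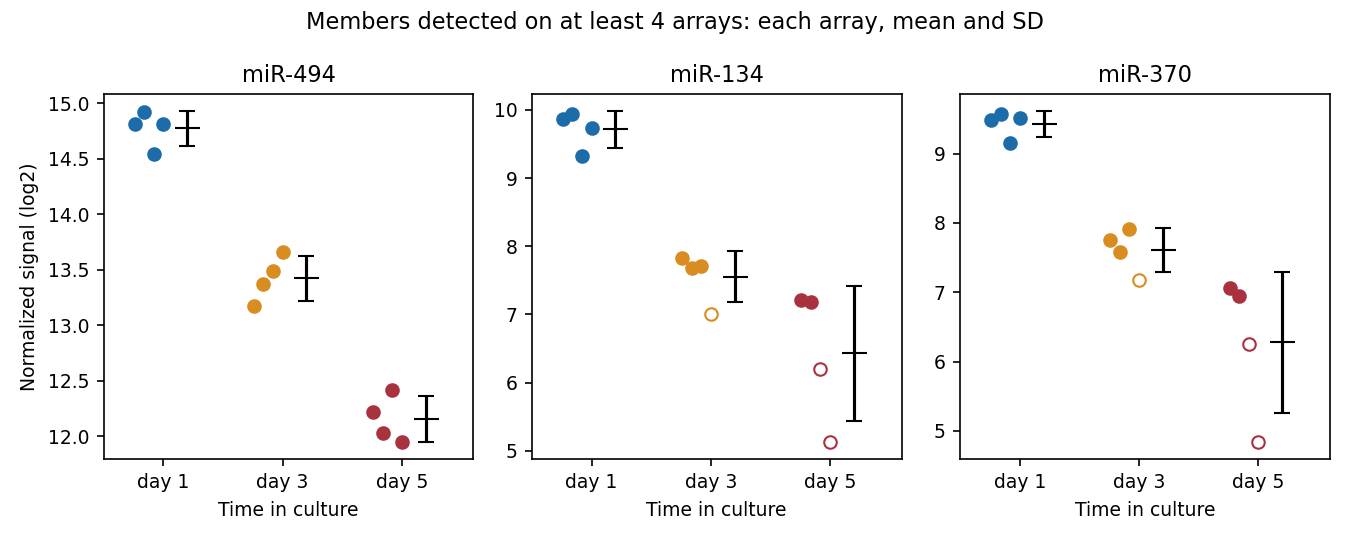
Normalized signal (log2, vertical axes with their own ranges) of miR-494, miR-134, and miR-370 on each array, by day of culture. Filled points mark arrays with detection and open points arrays without it, and the bars give the mean and SD of 4 arrays. In all 3 panels the day 1 arrays lie above all arrays of days 3 and 5.

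Over the 6 detected members, the model with 1 mean per day gave 4 with a change over the 3 days (limma F test, adjusted p under 0.01), namely miR-494, miR-134, miR-370, and miR-770-3p. Among all 334 miRNAs tested, 62.9% were called by the same rule. From day 1 to day 5 the same 4 of 6 members were lower, where 29.0% of all miRNAs tested were called lower. None of the 6 was called higher at day 5, beside 31.7% of all by the same rule, and none was higher at an unadjusted p under 0.05 either. From day 1 to day 3 these 4 members were lower as well, beside 25.1% of all. From day 3 to day 5, 1 of 6 (miR-494) was lower, beside 10.8% of all. For 5 of the 6 members all day 5 arrays were below all day 1 arrays, beside 29.9% of all miRNAs tested. The median change from day 1 to day 5 was -3.22 on the log2 scale over the 6 members, or -2.06 with miR-770-3p and miR-341 at the bounds of their falls, and 0.11 over all 334 miRNAs. These counts rest on 6 of 56 members, those that passed the detection filter, and a member detected at day 1 alone could enter only by being high there. This holds for miR-770-3p and miR-341, so that the counts lend these falls no support of their own.

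miR-770-3p was detected at day 1 only. Its total signal was 97.8, 151, 71.1, and 134.4 at day 1, with detection on the second and the last of these arrays. It was 1.26, -8.86, 8.27, and -33.9 at day 3, and 4.11, 10.7, 11.6, and -117 at day 5, with no detection. Every later array was thus below every day 1 array. As it was detected on no array of the later days, its fall is given as a bound, against the lowest signal of any detected miRNA on those arrays. It was at least 2.6-fold lower at day 3 and at least 2.83-fold lower at day 5, and these bounds were not tested. The limma change on floored log2 values was -5.71 at day 3 (limma adjusted p = 0.000129). At day 5 it was -4.92 (limma adjusted p = 0.000265). Having entered the model through its day 1 arrays alone, miR-770-3p was selected for its day 1 signal, and these p-values are no independent evidence of a fall. The call at day 5 was lost without day 5 replicate 4 (change -3.13, adjusted p = 0.0203).

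miR-341, detected on 1 array only, also gave its highest signals at day 1. It gave 91.7, 94.3, 66.8, and 89.0 at day 1, with detection on the second array only. At day 3 it gave -6.68, -1.26, 8.83, and 2.22, and at day 5 10.8, 10.3, 1.68, and -77.7. All day 1 arrays were above all later arrays. The limma adjusted p was 0.01002 at day 3, just above the threshold, and 0.0152 at day 5, and the change over the 3 days gave 0.0149, so that miR-341 was not called. It was called in each of these comparisons under both 75th-percentile scalings, without normalization, and with normexp background correction, with an adjusted p for day 5 between 0.00125 and 0.00711. Without day 3 replicate 4 the change over the 3 days passed (adjusted p = 0.00606), as did day 3 against day 1 (0.00353), which also passed without day 5 replicate 3 (0.00982). As miR-341 entered the model through 1 day 1 array alone, none of these p-values is independent evidence of a fall. It did not enter when that array, day 1 replicate 2, was left out. The bound was at least 1.82-fold lower at day 3 and at least 1.99-fold lower at day 5. With a stricter limit at the 5th percentile of detected signals on each array, no fold above 1 could be given for miR-770-3p or miR-341.

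miR-329 was the member that was detected late. Its total signal was 150, -10.4, 102, and 98.5 at day 1, with no detection. It was 24.001, 52.0, 56.3, and 219 at day 3, and 7.11, -16.3, 55.7, and 467 at day 5, with detection on the last array of each of these days. The days overlapped fully. The change from day 1 to day 5 was -1.10 (SE 2.21, limma adjusted p = 0.688), and leaving out day 5 replicate 1 or replicate 2 turned its sign (0.12 each). The arrays on which miR-329 was bright were also those with the widest spread around 0. Its 3 highest signals fell on day 1 replicate 1, day 3 replicate 4, and day 5 replicate 4, and the median signal of the 50 never detected members on these arrays was -32.6, -25.0, and -63.4. On the other 9 arrays this median lay between -11.0 and -5.17, and miR-329 between -16.3 and 102. The part of this spread in the detection of miR-329 was not tested.

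**Figure D3:**
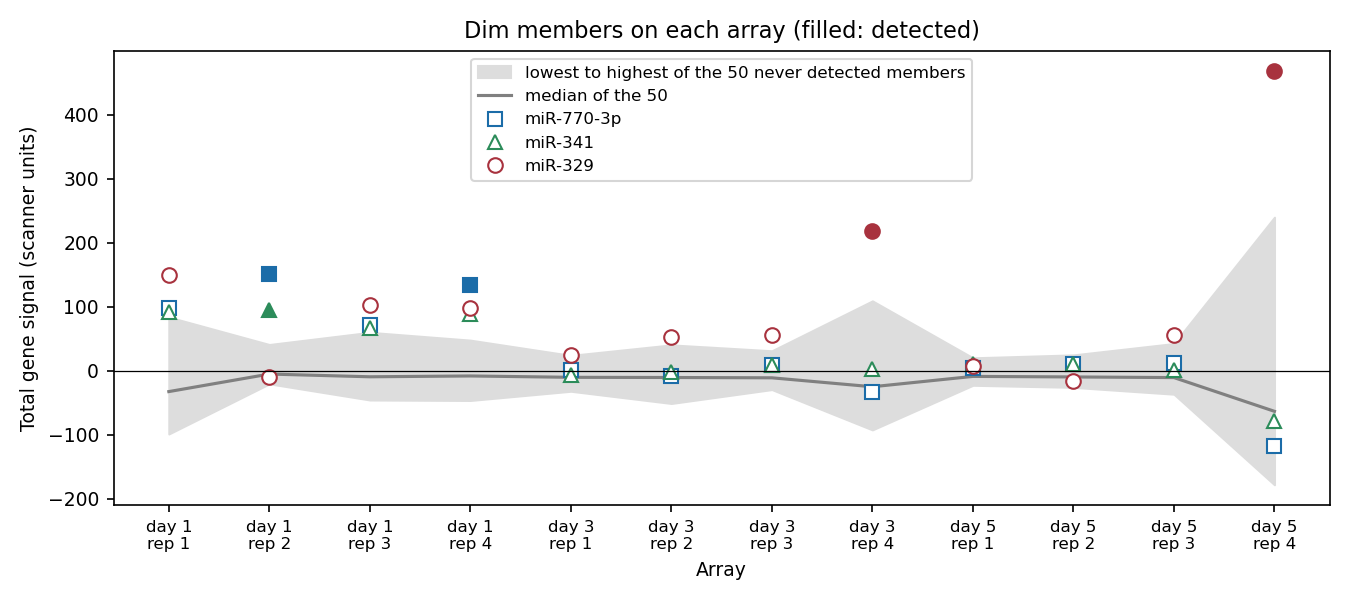
Total gene signal in scanner units (vertical axis) of miR-770-3p, miR-341, and miR-329 on each of the 12 arrays (horizontal axis), filled where detected. The grey band spans the lowest to the highest of the 50 never detected members on that array, and the line is their median. miR-770-3p and miR-341 lie above the band on the 4 day 1 arrays, and miR-329 lies highest where the band is widest.

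The other 50 members were never detected. In Meg3 this was miR-770-5p. Within Rtl1 they were miR-493, miR-337-5p, miR-337-3p, miR-540-5p, miR-540-3p, miR-665, miR-431, miR-433, miR-127, miR-434-5p, miR-434-3p, and miR-136. miR-127 lies opposite the coding sequence of Rtl1 and is known to direct the cleavage of its mRNA. Between Rian and Mirg they were miR-379, miR-411, miR-299, miR-380-5p, miR-380-3p, miR-323-5p, miR-323-3p, miR-758, miR-679-5p, miR-666-5p, miR-666-3p, miR-543, miR-495, miR-667, miR-654-5p, miR-654-3p, miR-376b, miR-376a, miR-300, miR-381, miR-539-5p, miR-544-3p, miR-382, and miR-668. In Mirg they were miR-154, miR-496, miR-377, miR-541, miR-409-5p, miR-409-3p, miR-412-3p, miR-369-5p, miR-369-3p, and miR-410. The 3 members without a RefSeq match, miR-376c, miR-485, and miR-487b, complete the list.

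Of the 600 signals of these 50 members on 12 arrays, 444 (74.0%) were at or below 0, and their median was -10.9. For 15 of the 50 no array gave a signal above 0, and none of the 50 was above 0 on every array. For 37 the highest signal was below 20. The highest signal of miR-127, for example, was 18.0, that of miR-379 was 4.53, and that of miR-410 was 0.0998. The 9 members whose highest signal passed 50 all had it on day 5 replicate 4, led by miR-154 with 240, miR-668 with 234, and miR-369-5p with 177. The median of miR-154 over the 12 arrays was 38.7. For comparison, the 312 never detected miRNAs outside the list had a median signal of -89.2 on day 5 replicate 4, and between 58.7% and 76.3% of them were at or below 0 per array, against 62.0% to 90.0% of the 50 members. A miRNA in this range may be present below what the array detects, so these values set no statement of absence.

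The array holds 24 further entries of the region, which are the opposite strands marked with a star and miRNAs with other numbers. Of these, 6 (25.0%) were detected on at least 1 array, against 51.3% of all miRNAs outside the name rule. Of these 6, 2 (miR-3072* and miR-882) were called lower than day 1 at both later days, beside 25.1% of all miRNAs tested at day 3 and 29.0% at day 5. miR-3072* lies in Mirg (probe at chr12:110986113-110986124), has the mature sequence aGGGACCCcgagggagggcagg, and was detected on all 12 arrays. Its total signal was 5463, 4892, 3670, and 3586 at day 1, 964, 783, 797, and 799 at day 3, and 775, 533, 653, and 433.7 at day 5. On the normalized scale no arrays of different days overlapped. The change from day 1 was -1.32 (SE 0.10, limma adjusted p = 1.47e-06) at day 3 and -2.41 (SE 0.10, limma adjusted p = 6.46e-09) at day 5, with a further step of -1.09 (SE 0.10, limma adjusted p = 3.64e-05) after day 3. The day 3 call was lost with the processed spot signal (adjusted p = 0.0279), and the last step with that signal (0.404), with normexp background correction (0.5), and without normalization (0.0846). Its partner strand miR-3072 was never detected.

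miR-882 was detected on the 4 day 1 arrays and on none later. Its signal was 57.6, 157, 67.6, and 81.4 at day 1 and below 0 on all 8 later arrays. It was at least 1.78-fold lower at day 3 and at least 1.94-fold lower at day 5, with no fold above 1 at the stricter limit. These bounds were not tested. The limma change on floored log2 values was -5.72 at both days (limma adjusted p = 2.98e-07 and 1.82e-07). miR-882 too entered the model through day 1 alone, and its 8 later values were at the floor, so that these p-values are no independent evidence. This signal came from 1 of its 4 probes, the longest with 20 bases, which gave a mean of 125 at day 1, while the other 3 gave means between -11.8 and -10.8. miR-300*, detected on 3 day 1 arrays, likewise had 1 probe of 4 above 0 at day 1 (20 bases, mean 52.1). Its change to day 5 was not called (limma adjusted p = 0.0279). It was called without day 5 replicate 4 (limma adjusted p = 0.000262), without a filter on dim miRNAs (0.000301), and with the processed spot signal (2.26e-05). Both 75th-percentile scalings (1.06e-05 and 1.95e-05) and no normalization (5e-06) also called it. As miR-300* entered the model through day 1 alone, these p-values are no independent evidence of a fall. miR-1906, detected on 11 arrays, has the same mature sequence at a place on chromosome X, so its signal cannot be credited to this region. Its change from day 1 to day 5 was -0.37 (SE 0.25, limma adjusted p = 0.207). miR-1188 was detected on day 1 replicate 2, and miR-299* on day 5 replicate 4.

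**Figure D4:**
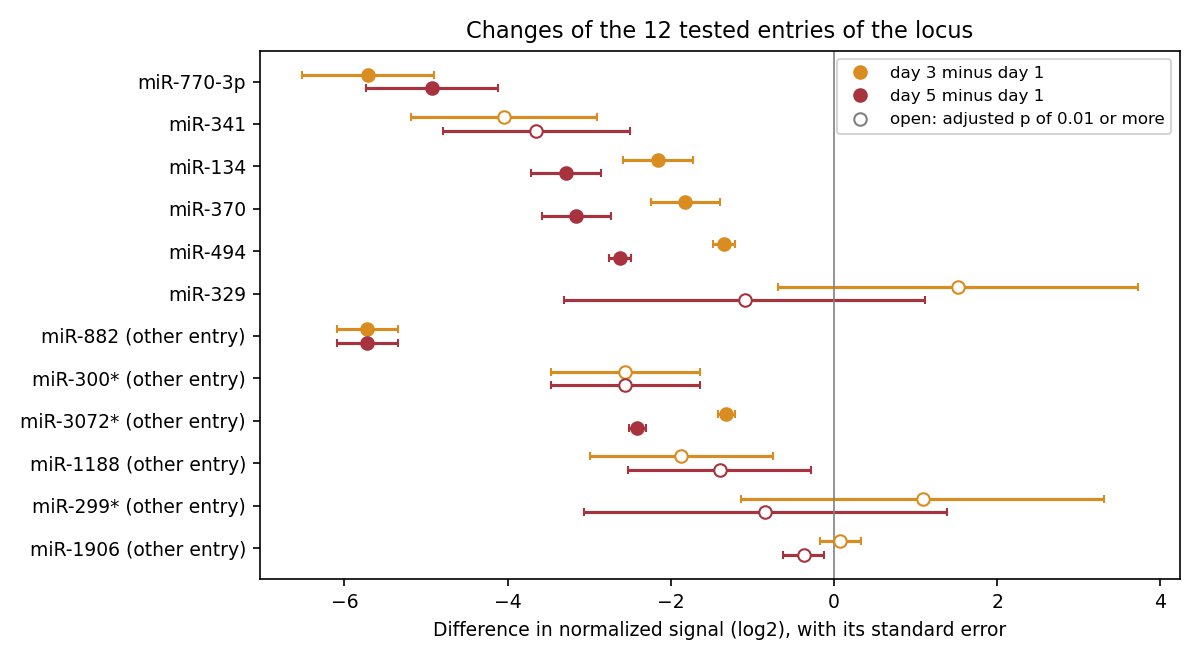
Difference in normalized signal (log2, horizontal axis) from day 1 to day 3 and from day 1 to day 5 for the 6 detected members and the 6 detected other entries of the region, with the standard error of the fit. Filled points have an adjusted p under 0.01. Those of miR-770-3p and miR-882 are fitted changes and not the bounds in the text, with some or all later values at the floor. Both entered the model through day 1 alone, so their p-values are no independent evidence of a fall. The filled points all lie below 0, and miR-329, miR-299*, and miR-1906 lie near 0 or have wide errors.

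The separate probes of the main members gave the same direction. The 14-base and 15-base probes of miR-494 fell from means of 22736 and 14802 at day 1 to 3332 and 1456 at day 5, which are ratios of 6.82 and 10.2. The 4 probes of miR-134, with 10 to 13 bases, had day 1 means between 262 and 303 and day 5 means between 14.1 and 19.3. The probes of miR-370 fell from 387 and 550 to 15.1 and 41.7. For miR-770-3p, the probes of 12 and 13 bases carried most of the day 1 signal (49.5 and 39.9), and those of 10 and 11 bases gave 15.3 and 8.91. The complement of the 10-base probe also occurs in miR-7087-5p, whereas the longer probes match miR-770-3p alone among RefSeq mature miRNAs.

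Of the seeds of the detected members, the array shares only that of miR-329 with another matched entry, miR-362-3p of chromosome X. The sequences agree in their first 8 bases and then part.
miR-329: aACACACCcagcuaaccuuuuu
miR-362-3p: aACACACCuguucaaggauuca
miR-362-3p had detection on every array and rose from a log2 mean of 9.09 at day 1 to 9.75 at day 3 and 10.71 at day 5. Its change from day 1 to day 5 was 1.62 (SE 0.12, limma adjusted p = 5.09e-07), where that of miR-329 was -1.10 (SE 2.21) and was not called. The difference between both changes was not tested.

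Marker miRNAs of several blood and stromal cell types were read over the same days. Their sums are of total signals, without normalization between arrays, while changes on the log2 scale are normalized. The summed signal of all miRNAs per array was 1464570 to 1991640 at day 1, 976976 to 1137240 at day 3, and 1309730 to 1574710 at day 5. In bulk RNA, fewer cells of a type and less RNA per cell cannot be told apart. The erythroid markers on the array, miR-451 and miR-144, summed to signals of 29020 to 57393 at day 1, 810 to 1771 at day 3, and 124 to 295 at day 5, and miR-451 fell by 7.24 on the log2 scale (SE 0.25) while miR-144 was detected on no array after day 1. The names miR-144* and miR-486 were not found among the entries. miR-126-3p, listed here as a megakaryocytic marker, gave 608 to 1337 at day 1, 15.5 to 47.1 at day 3, and at most 40.1 at day 5. It was detected on the 4 day 1 arrays only. The 3 lymphoid markers (miR-150, miR-181a, miR-181b) summed to 2471 to 3336, then 1267 to 1525, then 1594 to 2026. miR-150 was detected on the 4 day 1 arrays only, but its change to day 5 was not called (-3.08, SE 1.37, limma adjusted p = 0.067). miR-181a and miR-181b were detected on all 12 arrays. miR-181a changed by -0.80 (SE 0.15, limma adjusted p = 0.000641) and miR-181b by 0.45 (SE 0.13, limma adjusted p = 0.0101, not called). The 5 stromal markers (both arms of miR-199a, miR-214, miR-145, and miR-143) summed to 494.1 to 896 at day 1, 403 to 529 at day 3, and 2432 to 3545 at day 5. miR-143 was detected on 3 day 5 arrays and on none before. It was called higher at day 5 than day 1, as were miR-214 and both arms of miR-199a. miR-145 was detected on 1 day 1 array only, and its change of -0.13 (SE 1.10, limma adjusted p = 0.918) was not called. The miRNAs listed as granulocytic and myeloid markers, miR-223 and miR-142-3p, were detected on all 12 arrays, with sums of 97675 to 116658, 52482 to 66806, and 75199 to 91900. On the log2 scale miR-223 changed by -0.43 from day 1 to day 5 (SE 0.05, limma adjusted p = 2.28e-05). The change of miR-142-3p was 0.57 (SE 0.21, limma adjusted p = 0.0287) and was not called. The part of these cell types in the fall of miR-494, miR-134, miR-370, and miR-770-3p was not tested.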

How the data were processed

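RNA of 12 cultures was hybridized to 12 single-color Agilent miRNA arrays with 14635 spots each (13920 for 696 mouse miRNAs). The intensity values deposited by the authors are scanner output of Feature Extraction 9.5.3.1, with background subtracted, a total per miRNA, a detection mark, and no normalization between arrays. The normalized log2 table deposited by the authors was made in GeneSpring and was used as an alternative. Per array, 186 to 276 miRNAs were detected, and signals summed to 976976 to 1991640.

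The 334 miRNAs with detection on any array entered the model, their totals being quantile normalized, raised to a floor of 1 (9.28% of values), and converted to log2. limma 3.58.1 in R 4.3.3 (lmFit, eBayes) fitted 1 mean per day, and p-values were adjusted over all 334 miRNAs by Benjamini-Hochberg, with a threshold of 0.01. Mean differences were also tested by exact permutation in scipy 1.17.1. A fall to no detection is given as a bound, using on each later array the higher of the miRNA's value and the lowest normalized signal of a detected miRNA. The fit was also run on simulated normal values with known changes. These had no floor and no detection filter, so that run does not bear on the calls of dim miRNAs.

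Every member is reported, with values on each array for those detected on at least 4 arrays and, in addition, for the other detected ones. Members and lists were chosen with earlier results of these data known. Alternatives covered filters, scaling, background correction, floor, deposited values, thresholds, the replicate number as a block, and each array left out. The labels number replicates 1 to 4 per day without saying what a number shares.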

Additional observations from a re-analysis of the deposited data

Results flagged for a closer look

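Of 32 sets of 4 arrays, 1 set per entry and day, 2 held an array far from the other three, with a gap over the range above Dixon's limit. Chance gives about 1 in 20. On day 1 replicate 2, miR-329 was at the floor, with a log2 value of 0 (signal -10.4), while the other day 1 arrays lay between 6.13 and 6.65. On day 3 replicate 3, miR-770-3p had a log2 value of 2.21 (signal 8.27), while the other day 3 arrays were at the floor of 0. Both gaps involve the floor. In the first, the far array was itself at the floor, and the 4 signals were 149.8, -10.4, 102.1, and 98.5. In the second, the floor gave the other arrays the same value, and the 4 signals were 1.26, -8.86, 8.27, and -33.9. Neither miRNA was detected on any array of that day.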

How the results depend on the processing

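The number of members detected fell from 6 to 3 when all 4 arrays of a day had to show detection, and to 1 for all 12 arrays. It was 5 to 6 with 1 array left out. With only miRNAs detected on all 12 arrays, 1 member (miR-494) was tested and called in each comparison. Without a filter on dim miRNAs, 1 member was called over time, 1 was lower at day 5 than day 1, and 2 differed between days 3 and 1. There the changes of miR-134 (-4.51, adjusted p = 0.0344), miR-370 (-4.31, 0.0384), and miR-770-3p (-4.48, 0.0174) missed the threshold. With day 5 replicate 4 left out as well, a combination chosen after seeing the data, miR-134 and miR-370 passed again (-2.83 and -2.64). With the authors' values, 2 members differed between days 3 and 1. Days 5 and 3 differed for 1 member, but for 2 at an adjusted p under 0.05, with detection on all 4 arrays of a day, with the processed spot signal, or with no filter and day 5 replicate 4 left out, for 3 with normexp or with 75th-percentile scaling and that array left out, and for 0 without normalization. Leaving out 1 array gave 3 to 4 members lower at day 5 than day 1, 4 to 5 changed over time, and 3 to 5 different between days 3 and 1.

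No member was called higher at day 5 in any setting. The change of miR-494 from day 1 to day 5 stayed between -2.99 and -2.56 over all settings other than the added combinations. That of miR-134 ranged from -5.57 (authors' values, which leave out arrays without detection) to -1.70 (normexp), and that of miR-370 from -6.004 to -1.62 in the same settings. Under 75th-percentile scaling over miRNAs detected on all arrays, the median change of all miRNAs tested was -0.51 in place of 0.11. There, as without normalization, miR-341 replaced miR-134 and miR-370 among the members called over time. For miR-329 the sign turned with normexp (0.10) and without day 5 replicate 1 or 2 (0.12 each), and ranged from -2.69 to 0.12 with 1 array left out. Same-numbered arrays of different days had correlations of their deviations between -0.435 and 0.699, so the numbers were not taken as pairs. With the replicate number as a block, 5 members were called over time, 5 lower at day 5, and 5 different between days 3 and 1, miR-341 being added (-3.65, adjusted p = 0.00889), and 1 differed between days 5 and 3. Array number and, for dim miRNAs, signal over background limit the precision.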
